A study of Mus musculus with 12 samples.

Results

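The proximal to distal axis of the small intestine was compared in wild-type (WT) mice, as the difference between 3 distal and 3 proximal libraries. These 6 libraries are part of 12, and all 17175 genes of the deposited table entered the comparison. The other 6 libraries come from the same 2 segments of mice labelled Bmpr1a cKO. A cKO is a conditional knockout, and the Bmpr1a product is one of the type I receptors that bind bone morphogenetic proteins (BMPs). The series describes its question as how BMP signals in the epithelium relate to villus length along the small intestine. Total RNA was sequenced in bulk, so lower abundance of a cell type and less RNA per cell cannot be told apart. The labels give neither strain, age, sex, nor the Cre driver or cell type of the deletion, and they do not define where the proximal and distal pieces were cut. Whether each library stands for its own mouse is not stated either, so p-values measure only how far these samples scatter, and that scatter may be technical. The labels carry the numbers WT1 to WT3 in both segments.

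Along the small intestine, enterocytes divide the work of absorption. The proximal part, duodenum and jejunum, digests sugars, takes up iron, calcium, folate and most fat, and makes hormones that answer to nutrients. The distal part, the ileum, recovers bile acids and vitamin B12, holds more Paneth cells with their antimicrobial peptides, and carries most Peyer's patches, the lymphoid follicles of the gut wall. Transcription factors of the GATA, CDX, HNF4 and PDX families are known to keep these regional programmes apart.

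Promoter sequences of 6 genes at the ends of this axis are shown first, because their products define the regional functions described below. Fabp6 (bile acid binding protein of the ileocyte) and Slc10a2 (the apical bile acid transporter) were higher in the distal libraries. Lct (lactase), Alpi (intestinal alkaline phosphatase), Trpv6 (an apical calcium channel) and Fabp1 (liver-type fatty acid binding protein) were lower there. Each run is the 250 bases before the RefSeq transcription start in GRCm38.p6, written 5′ to 3′ on the gene's strand. Capitals mark letters found on either strand: AGATAA stands for factors of the GATA family, TTTATG for CDX factors, and CAAAGTCCA for HNF4. A match is a description of the letters and not a binding site shown by these data.
Fabp6 (minus strand, chr11:43601563-43601812): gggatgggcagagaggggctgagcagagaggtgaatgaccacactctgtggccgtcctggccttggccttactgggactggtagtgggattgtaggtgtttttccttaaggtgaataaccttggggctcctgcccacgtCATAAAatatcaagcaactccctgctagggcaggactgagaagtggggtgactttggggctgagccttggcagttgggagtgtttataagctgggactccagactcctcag
Slc10a2 (minus strand, chr8:5105288-5105537): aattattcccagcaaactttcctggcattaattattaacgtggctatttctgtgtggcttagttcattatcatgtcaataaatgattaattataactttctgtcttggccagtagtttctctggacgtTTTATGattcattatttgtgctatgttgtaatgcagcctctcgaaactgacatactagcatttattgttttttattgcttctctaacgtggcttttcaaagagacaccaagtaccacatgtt
Lct (minus strand, chr1:128328319-128328568): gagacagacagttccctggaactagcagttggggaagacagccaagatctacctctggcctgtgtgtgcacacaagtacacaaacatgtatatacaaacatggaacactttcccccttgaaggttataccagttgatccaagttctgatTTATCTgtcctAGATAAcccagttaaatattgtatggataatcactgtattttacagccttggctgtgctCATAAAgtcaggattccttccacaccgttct
Alpi (minus strand, chr1:87101607-87101856): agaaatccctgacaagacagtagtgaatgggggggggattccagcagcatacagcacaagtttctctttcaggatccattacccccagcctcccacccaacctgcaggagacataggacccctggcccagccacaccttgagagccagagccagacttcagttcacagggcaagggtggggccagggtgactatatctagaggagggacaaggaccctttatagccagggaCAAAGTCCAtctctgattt
Trpv6 (minus strand, chr6:41636406-41636655): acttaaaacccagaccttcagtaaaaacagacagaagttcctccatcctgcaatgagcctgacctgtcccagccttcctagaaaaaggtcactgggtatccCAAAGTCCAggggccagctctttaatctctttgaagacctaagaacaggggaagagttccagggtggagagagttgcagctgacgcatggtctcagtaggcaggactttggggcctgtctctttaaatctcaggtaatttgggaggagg
Fabp1 (plus strand, chr6:71199629-71199878): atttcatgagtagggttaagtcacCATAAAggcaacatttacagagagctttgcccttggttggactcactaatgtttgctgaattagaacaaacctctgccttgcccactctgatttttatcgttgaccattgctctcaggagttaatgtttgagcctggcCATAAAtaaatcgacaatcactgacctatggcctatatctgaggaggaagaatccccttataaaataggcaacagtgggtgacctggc
Counted from the start site, the first base of the CDX match lies at -111 in Fabp6, at -122 in Slc10a2 and at -31 in Lct, and Fabp1 holds a pair of them at -226 and -88. Lct also holds GATA matches at -101 and -90. The HNF4 match lies at -19 in Alpi and at -149 in Trpv6.

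Counts are given as scaled reads, the reads recovered from the deposited values divided by the authors' size factor of the library. Depth was 14840053 to 16381314 recovered reads in the WT proximal and 11242024 to 14504077 in the WT distal libraries. Each distal library was thus shallower than each proximal one (exact permutation p = 0.1, the smallest possible). Markers of intestinal epithelium were high in every library: the summed scaled reads of 15 pan-epithelial genes were 219969 to 282319 in proximal and 178762 to 302507 in distal libraries, and 1 of the 15 was higher and 0 lower. The higher count was 0 without WT distal 3, WT proximal 1 or WT proximal 3, and 1 was lower without WT distal 1 or WT distal 3 (2 higher and 2 lower with the replicate number as a block). Mitochondrially encoded genes took 22.8 ± 4.71% of proximal and 29.8 ± 7.69% of distal reads (exact permutation p = 0.3, smallest possible 0.1). The segment labels were set beside textbook regional markers of enterocytes: of 16 proximal markers 16 were lower in the distal libraries, and of 14 distal markers 7 were higher and 0 lower (1 without WT distal 3), where of all genes 12.2% were lower and 11.9% higher. These lists were written with earlier results of these data known, so they are not an independent check of the labels. The distal markers that did not pass were Slc51a, Slc51b, Enpep, Cubn, Amn, Clec2h and Muc3.

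Several libraries stood apart from the others of their group. WT distal 2 carried more reads of strongly proximal genes than the other distal libraries: over the 12 genes with the largest decreases among those whose log2 CPM averaged 2 or more over the 6 WT libraries, its median level was 1.70% of the proximal mean, against 0.193% in WT distal 1 and 0.154% in WT distal 3. Akp3, for example, stood in distal libraries 1, 2 and 3 at 15.8, 1404 and 26.4 scaled reads. In the other direction, WT proximal 3 held Fabp6 at 631 scaled reads and WT proximal 1 held Slc34a2 at 322, where the other proximal libraries stayed under 85. WT distal 3 held more of several enterocyte transcripts, such as Lct at 1519.7, 2476 and 13662 scaled reads in distal 1, 2 and 3. WT distal 1 was low in Paneth cell transcripts. The cause of these patterns was not tested.

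**Figure D1:**
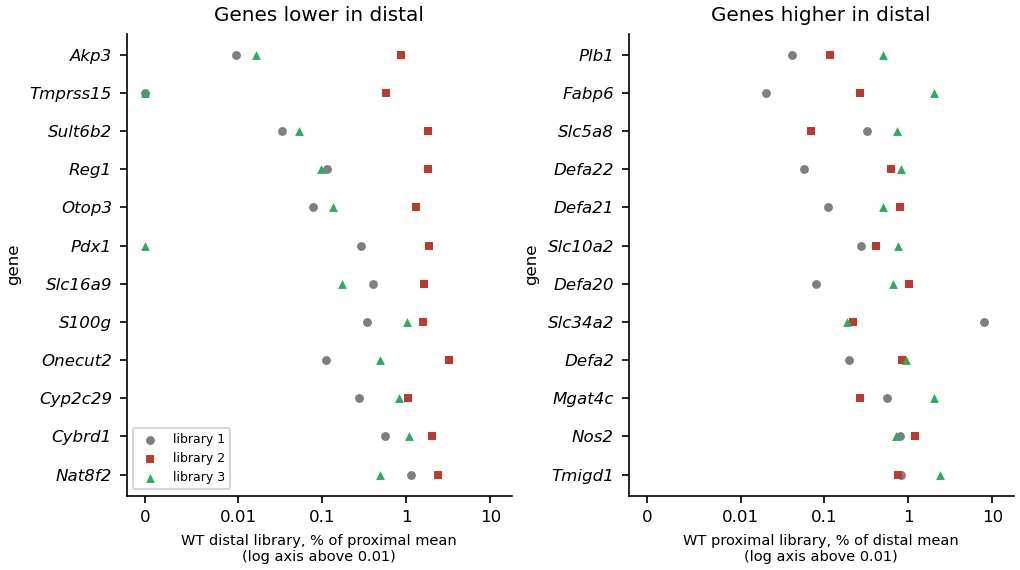
Level of each of the 12 genes with the largest decrease in each WT distal library as percent of the WT proximal mean (left), and of the 12 with the largest increase in each WT proximal library as percent of the WT distal mean (right), both among genes whose log2 CPM averaged 2 or more, on log axes above 0.01. Library WT distal 2 (squares, left) has the highest value for all 12 genes, with a median of 1.70%, and on the right Slc34a2 in WT proximal 1 stands at 7.87%.

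The segments differed widely. With limma on log2(value + 1) and an adjusted p under 0.05, 4137 of 17175 genes (24.1%) passed, 2037 of them higher (11.9%) and 2100 lower (12.2%) in the distal libraries. The median log2 fold change of all genes was 0.04. At least 2-fold changes were seen for 2786 of the called genes, 1431 higher and 1355 lower, and at least 8-fold changes for 125 higher and 214 lower. Of the 4137 genes, 4020 had distal and proximal libraries that did not overlap and 4126 had the same sign in each of the 3 numbered pairs. Non-overlap alone, whatever the p, was found for 19.2% of genes with distal higher and for 18.8% with distal lower. Without WT distal 2 the count of called genes was 2741, and without any of the other 5 libraries it was within 1.5 times the full count.

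**Figure D2:**
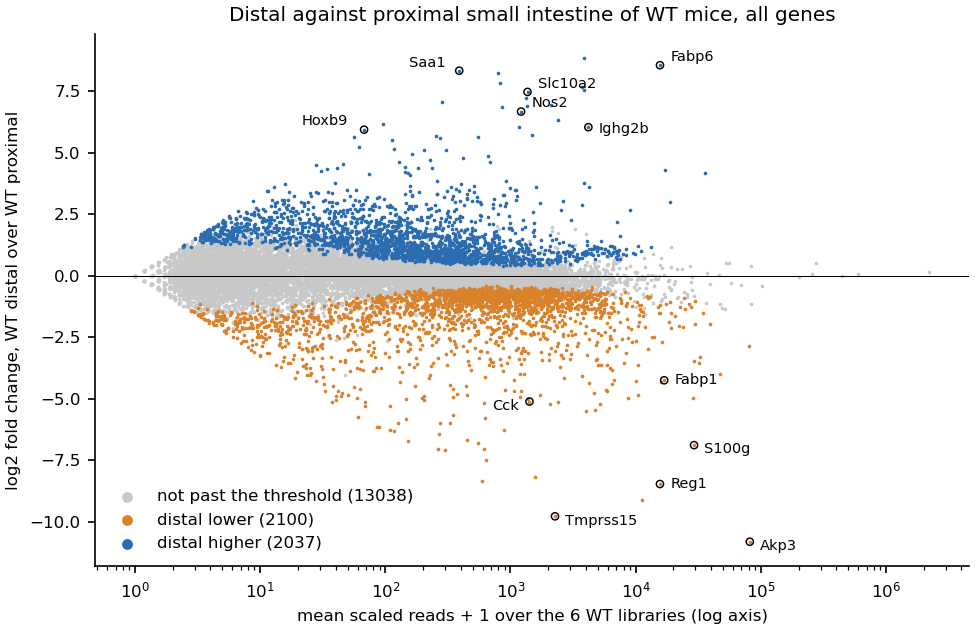
Log2 fold change of WT distal over WT proximal libraries against the mean scaled reads + 1 of the 6 libraries (log axis), with 1 point per gene. Coloured points are the 2100 genes lower (orange) and 2037 higher (blue) at an adjusted p under 0.05, and the named genes lie at the ends of the axis.

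Among genes whose log2 CPM averaged 2 or more, the largest decreases at the proximal end included digestive enzymes, transporters and factors of the duodenum. Akp3, a duodenal alkaline phosphatase (chromosome 1 from 87124973 to 87127912, plus strand), was at 170488, 132051 and 185939 scaled reads in proximal libraries and at 15.8, 1404 and 26.4 in distal ones (log2 fold change -10.81, SE 1.12, adjusted p = 1.51e-05). Tmprss15, which encodes enteropeptidase, the activator of trypsinogen, was at 5804, 3275 and 4491 against 0, 25.7 and 0 (log2 fold change -9.78, SE 0.73, adjusted p = 6.99e-07). In both genes the groups did not overlap, and nearly all distal reads came from WT distal 2. The sulfotransferase gene Sult6b2 (log2 fold change -9.09, SE 0.99, adjusted p = 2.62e-05), the lectin gene Reg1 (log2 fold change -8.47, SE 0.78, adjusted p = 5.22e-06), the proton channel gene Otop3 (log2 fold change -8.19, SE 0.59, adjusted p = 5.52e-07) and the carrier gene Slc16a9 (log2 fold change -7.04, SE 0.58, adjusted p = 1.71e-06) also fell. Alpi, the intestinal alkaline phosphatase whose promoter is shown above, was at 103418, 71572 and 89357 against 4146, 4428 and 8754 (log2 fold change -4.002, SE 0.32, adjusted p = 1.57e-06). Akp3 and Alpi are close relatives in sequence, as are the Reg genes, so reads may have been split between copies.

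At the distal end, with the same minimum, the largest increases included bile acid, lipid and defence genes. Plb1, a brush border phospholipase (chromosome 5 from 32232708 to 32366520, plus strand), was at 3.16, 8.98 and 38.7 scaled reads in proximal and at 4139, 3773 and 15272 in distal libraries (log2 fold change 8.86, SE 0.78, adjusted p = 3.16e-06). Slc5a8, a sodium-coupled carrier of lactate and short-chain fatty acids, was at 5.26, 1.12 and 11.8 against 1456, 1387 and 2051 (log2 fold change 7.86, SE 0.42, adjusted p = 7.58e-08). Every distal library stood above every proximal library for both genes. Mgat4c, a glycosyltransferase gene (log2 fold change 6.87, SE 0.55, adjusted p = 1.4e-06), and Tmigd1, an adhesion molecule of the brush border (log2 fold change 6.35, SE 0.54, adjusted p = 2.45e-06), rose as well.

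Regional transcription factors moved in both directions. Of 24 measured, 10 were lower and 4 higher in the distal libraries. Pdx1, a homeobox factor of duodenum and pancreas, was at 872, 1374 and 1539 scaled reads in proximal and 3.65, 23.6 and 0 in distal libraries (log2 fold change -7.50, SE 0.64, adjusted p = 2.27e-06). Onecut2 was at 1146, 1037 and 1082 against 1.22, 34.9 and 5.27 (log2 fold change -6.80, SE 0.61, adjusted p = 4.07e-06). Gata4, the GATA factor of duodenum and jejunum, was at 3513, 3004 and 2638 against 482, 734 and 610.3 (log2 fold change -2.33, SE 0.23, adjusted p = 1.19e-05). For all 3 genes the lowest proximal library was several times the highest distal one.

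Gata6 also fell (log2 fold change -1.21, SE 0.18, adjusted p = 0.000301), while Gata5 was at 951, 946 and 889 against 729, 955 and 1446 and did not pass (adjusted p = 0.762). The xenobiotic receptors Nr1i2 (log2 fold change -1.13, SE 0.22, adjusted p = 0.00257) and Nr1i3 (log2 fold change -3.32, SE 0.41, adjusted p = 7.21e-05) and the vitamin D receptor Vdr (log2 fold change -1.24, SE 0.26, adjusted p = 0.00348) fell. The fat-regulating factors Creb3l3 and Ppara were also called lower (adjusted p = 0.0155 and 0.028). Those calls ended without WT distal 1, the first also without WT distal 2 or WT proximal 1 and the second without WT proximal 3, with adjusted p of up to 0.086 and 0.119.

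On the distal side, Osr2 was at 64.2, 48.3 and 40.8 scaled reads in proximal and 1118, 1303 and 1517 in distal libraries (log2 fold change 4.64, SE 0.42, adjusted p = 4.08e-06), without overlap. The bile acid receptor gene Nr1h4, which encodes FXR, was at 498, 546 and 531 against 1025, 1564 and 1826 (log2 fold change 1.44, SE 0.24, adjusted p = 0.000773). Cdx1 rose modestly (log2 fold change 0.70, SE 0.16, adjusted p = 0.00684), whereas Cdx2 was at 2075, 1967 and 1786 against 2456, 2667 and 3436 and missed the threshold (adjusted p = 0.0792). Hnf4a (9708, 6757 and 6846 against 8275, 10501 and 12268), Isx, Maf, Klf4 and Klf5 did not pass either. Hnf4g missed the threshold (adjusted p = 0.0744) and passed it in the fit with the pair as a block (0.0383).

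Of 21 Hox genes, which record position along the body axis, 6 were higher and 0 lower in the distal libraries (1 lower without WT distal 1), and 11 had fewer than 30 reads over the 6 WT libraries. Hoxb9 had 0 reads in all 3 proximal libraries and 82.8, 132 and 186 scaled reads in the distal ones, at least 41.0-fold higher against a floor of 3 reads per library. Hoxb6 was at 2.10, 3.37 and 4.30 against 51.1, 60.6 and 109.6 (log2 fold change 3.78, SE 0.42, adjusted p = 3.06e-05), and Hoxb7 and Hoxb8 rose by 3.42 and 3.42 on the log2 scale (adjusted p = 0.000481 and 0.000305). These 4 genes lie side by side on chromosome 11, in a run of 6 neighbouring called genes from 96251105 to 96306910. Hoxd4 (log2 fold change 2.12, SE 0.39, adjusted p = 0.00158) and Hoxc8 (log2 fold change 2.59, SE 0.57, adjusted p = 0.00473) also rose, from a few scaled reads.

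Bile acid recovery, the best known task of the ileum, was split between genes found almost only in the distal libraries and genes present in both segments. Of 11 measured genes 4 were higher and 3 lower in the distal libraries. Slc10a2, the apical sodium-dependent carrier (chromosome 8 from 5083219 to 5105351, minus strand), was at 7.37, 11.2 and 20.4 scaled reads in proximal and 1604, 2464 and 4094 in distal libraries (log2 fold change 7.48, SE 0.37, adjusted p = 3.83e-08). Fabp6, the cytosolic binding protein (chromosome 11 from 43596049 to 43601540, minus strand), was at 6.31, 83.1 and 631 against 30791, 18202 and 44131 (log2 fold change 8.57, SE 1.07, adjusted p = 7.83e-05). The groups did not overlap for either gene, and WT proximal 3 was the highest proximal library for both.

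Fgf15, the hormone by which the ileum restrains bile acid synthesis in liver, had 0 reads in the 3 proximal libraries and 42.6, 36.0 and 287 scaled reads in the distal ones, at least 37.5-fold higher against the floor of 3 reads per library. WT distal 3 accounted for most of the distal signal of Fgf15. The subunits of the basolateral exporter showed another pattern. Slc51a was at 5351, 3758 and 3368 in proximal and 5119, 5018 and 13504 in distal libraries (log2 fold change 0.79, adjusted p = 0.167), and Slc51b at 549, 411 and 317 against 443, 427 and 731 (log2 fold change 0.32, adjusted p = 0.536). For both subunits the ranges overlapped or touched, with WT distal 3 the highest of the 6.

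The other 3 called genes of the list were lower in the distal libraries. Nr0b2, a repressor induced by FXR in liver and gut, was at 137, 139 and 83.8 scaled reads in proximal and 0, 5.14 and 5.27 in distal libraries (log2 fold change -4.61, SE 0.66, adjusted p = 0.000246), the opposite direction to Fgf15 and Nr1h4. The export pumps Abcc2 (log2 fold change -2.53, SE 0.41, adjusted p = 0.000594) and Abcc3 (log2 fold change -2.003, SE 0.32, adjusted p = 0.000524) fell too. Gpbar1 and Slc10a1 had at most 9.74 scaled reads in any WT library.

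Vitamin B12 uptake is the other textbook task of the ileum, and 0 of its 8 genes passed. The receptor gene Cubn was at 2398, 734 and 2442 scaled reads in proximal and 1755, 2306 and 9608 in distal libraries (adjusted p = 0.199), and its partner Amn at 1733, 933 and 1089 against 1732, 1540.4 and 7046 (adjusted p = 0.12). Only WT distal 3 stood above the proximal range for these receptor genes. At an unadjusted p under 0.05 the list held 3 genes. At an adjusted p under 0.05, edgeR called 0 genes of the list higher and 1 lower, and DESeq2 1 higher and 1 lower. Without WT distal 3, 2 genes were lower, and with the block 1 was higher.

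**Figure D3:**
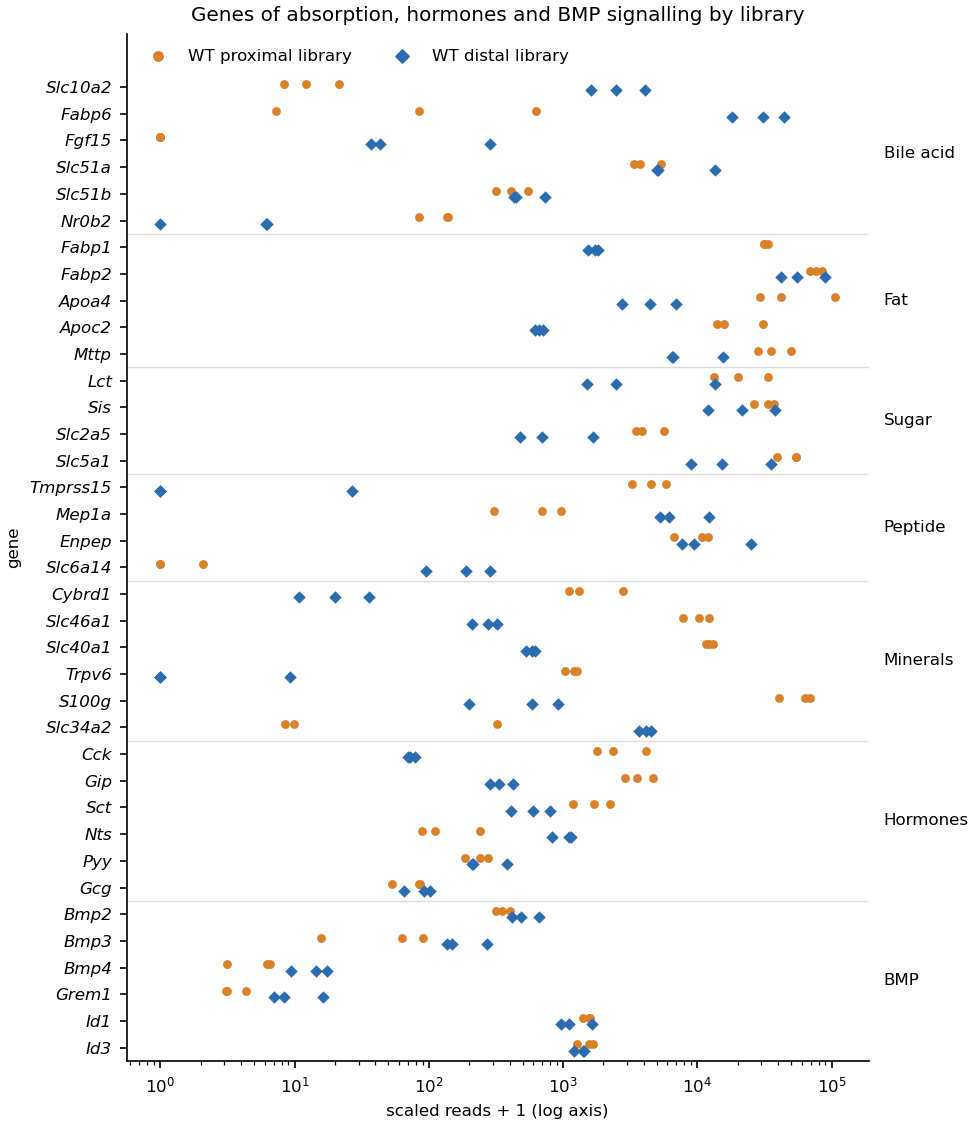
Scaled reads + 1 (log axis) of 37 genes of bile acid handling, fat, sugar and peptide absorption, minerals, hormones and BMP signalling, with 1 point per WT library (orange circles proximal, blue diamonds distal). Slc10a2, Tmprss15, Trpv6 and Cck separate the segments by orders of magnitude, whereas Slc51b, Sis, Pyy, Gcg, Id1 and Id3 overlap.

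Fat absorption and lipoprotein assembly were lower in the distal libraries wherever a gene passed. Of 29 genes 15 fell and 0 rose, with a median log2 fold change of -1.04. The lower count was 11 without WT distal 2, 12 without WT proximal 1, 13 without WT distal 1 and 18 without WT distal 3. Fabp1, the liver-type fatty acid binding protein, was at 33879.6, 31175 and 31309 scaled reads in proximal and 1531, 1725 and 1830.0 in distal libraries (log2 fold change -4.25, SE 0.29, adjusted p = 3.64e-07). Apoc2, the lipoprotein lipase cofactor, was at 30846, 15721 and 14027 against 707, 657 and 618 (log2 fold change -4.84, SE 0.28, adjusted p = 1.21e-07). Neither gene overlapped between segments.

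Apoa4, an apolipoprotein of chylomicrons, was at 106244, 29536 and 42229.5 against 4457, 2771 and 6931 (log2 fold change -3.53, SE 0.54, adjusted p = 0.000398), with WT proximal 1 the highest. The lipoprotein receptor Scarb1 (log2 fold change -3.87, SE 0.36, adjusted p = 5.93e-06), the triglyceride synthase gene Dgat2 (log2 fold change -2.56, SE 0.40, adjusted p = 0.000472) and the lipid droplet gene Cidec (log2 fold change -2.28, SE 0.25, adjusted p = 3.09e-05) fell as well. Mttp, the microsomal transfer protein that loads lipid onto apolipoprotein B, was at 50140.0, 28229.9 and 35136 against 6456, 6598 and 15549.5 (log2 fold change -2.08, SE 0.44, adjusted p = 0.00397).

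The fatty acid binding protein family split into 3 patterns. Per kilobase of exon, Fabp2 (intestinal type) had 79969.7 scaled reads in proximal and 64262 in distal libraries and did not pass (adjusted p = 0.597), Fabp1 had 58086 and 3066, and Fabp6 had 501 and 64805. On this scale Fabp2 was the highest of the family in proximal libraries, and Fabp2 and Fabp6 were close to each other in distal ones. The libraries overlapped for Fabp2, at 69344, 84888 and 77279.8 against 42052, 55214 and 88771 scaled reads. Fabp3, Fabp4, Fabp5, Fabp7 and Fabp12 had at most 289 scaled reads in any WT library and did not pass.

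Sugar digestion and transport fell with distance. Of 18 genes 15 were lower and 0 higher in the distal libraries, with a median log2 fold change of -1.97. The lower count was 10 without WT proximal 1 or with the mitochondrial share as covariate, and 11 without WT distal 1 or WT distal 2. It was 13 to 16 without any other single WT library. Slc2a2, the basolateral glucose carrier GLUT2, was at 12088, 8353 and 11516 scaled reads in proximal and 254, 1186 and 1999.7 in distal libraries (log2 fold change -3.63, SE 0.52, adjusted p = 0.000254). Slc2a5, the fructose carrier GLUT5, was at 5637, 3881 and 3510.1 against 476, 691 and 1668 (log2 fold change -2.37, SE 0.38, adjusted p = 0.000524). WT distal 3 held the most of both among the distal libraries, still below each proximal library.

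Trehalase (Treh, log2 fold change -3.05, SE 0.45, adjusted p = 0.000315), the hexose carrier Slc2a7 (log2 fold change -2.58, SE 0.29, adjusted p = 2.95e-05) and the gluconeogenic genes Fbp1 (log2 fold change -2.15, SE 0.26, adjusted p = 5.81e-05) and Pck1 (log2 fold change -3.04, SE 0.45, adjusted p = 0.000341) fell too. Lct was at 33614, 13268 and 20162 scaled reads in proximal and 1519.7, 2476 and 13662 in distal libraries (log2 fold change -2.48, adjusted p = 0.0135). The groups overlapped for Lct, and the call ended without WT distal 1, WT distal 2 or WT proximal 1, with an adjusted p of up to 0.0677. Sucrase-isomaltase (Sis) was at 33647, 26597 and 37378 against 12062, 21464 and 38203 and did not pass (adjusted p = 0.428). The glucose carrier gene Slc5a1 was called lower (adjusted p = 0.0364). Its call was kept without WT distal 3 and lost without any other single WT library, with an adjusted p of up to 0.16. Lct, Sis and Slc5a1 were chosen after their values were seen.

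Genes of peptide digestion moved both ways. Of 18 genes 5 were higher and 3 lower in the distal libraries, where of all genes 11.9% were higher and 12.2% lower. Mep1a, the alpha subunit of the metalloprotease meprin, was at 965, 308 and 696 scaled reads in proximal and 6152, 5249 and 12183 in distal libraries (log2 fold change 3.63, SE 0.38, adjusted p = 1.69e-05). Naaladl1, a brush border dipeptidase, was at 6581, 2027 and 3537 against 22432, 17529 and 60264 (log2 fold change 2.99, SE 0.54, adjusted p = 0.00139), and Xpnpep2, an aminopeptidase for peptides with proline, was at 799.8, 367 and 725 against 2480.4, 2817 and 8131 (log2 fold change 2.68, SE 0.41, adjusted p = 0.00041). The 3 genes did not overlap between segments, and WT distal 3 was the highest library for each.

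Besides Tmprss15, neprilysin (Mme, log2 fold change -3.13, SE 0.43, adjusted p = 0.0002) was lower in the distal libraries. Ggt1 was called lower (adjusted p = 0.0118), which was lost without WT distal 1 or WT distal 2, with an adjusted p of up to 0.0704. The count of higher genes was 3 without WT distal 2, WT distal 3, WT proximal 2 or WT proximal 3, and the count of lower genes was 5 without WT distal 3.

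Among 17 amino acid transporter genes 4 were higher and 5 lower. Slc6a14, a carrier of neutral and cationic amino acids, was at 0, 0 and 1.07 scaled reads in proximal and 93.8, 188 and 284 in distal libraries (log2 fold change 6.18, SE 0.49, adjusted p = 1.16e-06). Slc1a1, the carrier of glutamate and aspartate, was at 35.8, 48.3 and 50.5 against 486, 396 and 980.3 (log2 fold change 3.63, SE 0.41, adjusted p = 3.67e-05). Both were higher in every distal library than in any proximal one. The proline carrier Slc6a20a (log2 fold change -1.69, SE 0.34, adjusted p = 0.00288) and the neutral amino acid carrier Slc7a8 (log2 fold change -1.43, SE 0.34, adjusted p = 0.00805) fell. The count of lower transporters was 2 without WT distal 1, WT distal 2, WT proximal 1 or WT proximal 3, and the count of higher ones was 2 with the libraries scaled to the pan-epithelial genes.

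Iron, calcium and phosphate genes differed by large factors. Of 13 genes of iron and haem 7 were lower and 1 higher in the distal libraries. Slc46a1, the carrier of folate and haem, was at 12216, 7836 and 10342 scaled reads in proximal and 211, 275 and 319 in distal libraries (log2 fold change -5.22, SE 0.24, adjusted p = 3.83e-08). Cybrd1, the duodenal ferric reductase, was at 1104, 1320.0 and 2794 against 9.74, 34.9 and 19.0 (log2 fold change -6.25, SE 0.48, adjusted p = 8.48e-07). Slc40a1, the iron exporter ferroportin, was at 12229, 11572 and 12989 against 526, 619.7 and 584 (log2 fold change -4.41, SE 0.25, adjusted p = 9.91e-08).

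All 3 had proximal values many times those of any distal library. The apical iron carrier Slc11a2 (log2 fold change -2.59, SE 0.34, adjusted p = 0.000127) and ferritin heavy chain Fth1 (log2 fold change -2.86, SE 0.40, adjusted p = 0.00021) fell as well, whereas the transferrin receptor Tfrc rose (log2 fold change 1.12, SE 0.25, adjusted p = 0.00543).

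Of 9 calcium and phosphate genes 5 were lower and 1 higher. Trpv6, the apical calcium channel, was at 1042, 1211 and 1261 scaled reads in proximal and 0, 8.22 and 0 in distal libraries (log2 fold change -8.34, SE 0.66, adjusted p = 1.29e-06), with all distal reads in WT distal 2. S100g, the cytosolic calcium carrier calbindin-D9k, was at 40952, 63783 and 69218 against 198, 923 and 590.3 (log2 fold change -6.88, SE 0.59, adjusted p = 2.73e-06). The basolateral calcium pump Atp2b1 also fell (log2 fold change -1.92, SE 0.29, adjusted p = 0.000406), so the named genes of apical entry, cytosolic carriage and basolateral export of calcium were all lower. In the opposite direction, Slc34a2, the apical phosphate carrier, was at 322, 8.98 and 7.52 against 4485, 3651 and 4134 (log2 fold change 6.97, SE 0.92, adjusted p = 0.000134), and WT proximal 1 held nearly all of the proximal reads.

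Of 9 zinc genes 4 were lower and 1, Mtf1, higher, and the call of Mtf1 ended with the block, with pan-epithelial scaling and without WT distal 2, WT distal 3, WT proximal 2 or WT proximal 3. The metal transporter genes Slc30a10 (log2 fold change -3.23, SE 0.34, adjusted p = 1.69e-05), Slc39a14 (log2 fold change -2.12, SE 0.21, adjusted p = 1.07e-05) and Slc30a2 (log2 fold change -1.37, SE 0.31, adjusted p = 0.00567) fell. They were listed by gene family, and not all members of these families carry mainly zinc. Slc39a4, the main apical zinc importer, was at 5585, 3269 and 3796 against 2206, 1933 and 5038 and did not pass (adjusted p = 0.334).

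Carbonic anhydrase 2 (Car2) was at 3017, 4795 and 4187 scaled reads in proximal and 53.6, 169.6 and 125 in distal libraries (log2 fold change -5.20, SE 0.36, adjusted p = 4.88e-07). Car9 fell (log2 fold change -2.66, SE 0.22, adjusted p = 1.94e-06) and Car12 rose (log2 fold change 2.67, SE 0.43, adjusted p = 0.000566). Of 18 genes of carbonic anhydrases and ion exchange 7 were lower and 2 higher, the latter 4 with the pair as a block. Water channels were mostly lower, 5 of 8 lower and 1 (Aqp4) higher (0 without WT distal 2 or WT proximal 2), with Aqp3 at 1283, 695 and 572 against 59.7, 62.7 and 90.7 (log2 fold change -3.48, SE 0.32, adjusted p = 5.65e-06).

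Of 20 genes of vitamin A handling 7 fell and 1 rose in the distal libraries, with a median log2 fold change of 0.05. Rbp2, the cellular retinol binding protein of the enterocyte, was at 56414, 61065 and 59526 scaled reads in proximal and 3423, 6989 and 8991 in distal libraries (log2 fold change -3.30, SE 0.36, adjusted p = 2.78e-05). Aldh1a1, which makes retinoic acid, was at 13188, 11929.5 and 11781 against 1431, 1771 and 1897 (log2 fold change -2.86, SE 0.20, adjusted p = 4.64e-07). The carotenoid oxygenase Bco2 (log2 fold change -2.10, SE 0.30, adjusted p = 0.000225) and the retinol dehydrogenases Rdh7 (log2 fold change -2.94, SE 0.41, adjusted p = 0.0002) and Rdh10 (log2 fold change -1.64, SE 0.19, adjusted p = 4.45e-05) fell, and the receptor gene Stra6 rose from a low level (log2 fold change 1.92, SE 0.44, adjusted p = 0.00616). Isx, the repressor of carotenoid uptake, was at 1279.7, 1181 and 1081 against 1053, 1292 and 1285 (adjusted p = 0.912).

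Glutathione and glucuronosyl transferases were the list with the largest share of decreases among the detoxification lists, 28 of 33, with 0 increases and a median log2 fold change of -2.93. Gsta2 was at 564, 493 and 523 scaled reads in proximal and 1.22, 4.11 and 1.05 in distal libraries (log2 fold change -7.03, SE 0.43, adjusted p = 2.04e-07), Gstm1 at 13884, 12776 and 7191 against 339.7, 560.1 and 383 (log2 fold change -4.69, SE 0.27, adjusted p = 1.32e-07). Groups were apart by more than an order of magnitude for both genes.

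Carboxylesterases and sulfotransferases had 12 of 23 lower and 0 higher, among them Ces2g (log2 fold change -4.70, SE 0.31, adjusted p = 2.9e-07). Cytochrome P450 families 2 to 4 had 24 of 47 lower and 2 higher, the latter 5 with the pair as a block and 1 without WT distal 2, WT distal 3, WT proximal 2 or WT proximal 3. Cyp3a11, the main drug-metabolizing member, was at 34715, 23031 and 33705 against 1139, 1462 and 2008 (log2 fold change -4.32, SE 0.35, adjusted p = 1.64e-06), and Cyp2c29 at 1373, 427 and 876 against 2.44, 9.25 and 7.38 (log2 fold change -6.67, SE 0.48, adjusted p = 5.69e-07). Cyp3a44 rose from 15.8, 6.73 and 10.7 to 42.6, 40.1 and 40.1 (log2 fold change 1.76, SE 0.43, adjusted p = 0.00875). Members of the Gst, Cyp2c, Cyp3a and Ces families are close copies, so reads may have been split between them.

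Energy and sterol metabolism moved in opposite directions. Fatty acid oxidation and ketogenesis had 19 of 23 genes lower and 0 higher in the distal libraries (median -1.17). Pdk4, the kinase that closes pyruvate dehydrogenase, was at 794, 556 and 676 scaled reads in proximal and 20.7, 18.5 and 20.029 in distal libraries (log2 fold change -4.94, SE 0.27, adjusted p = 8.87e-08). The peroxisomal thiolase Acaa1b (log2 fold change -3.40, SE 0.21, adjusted p = 2.17e-07) and Ehhadh (log2 fold change -2.04, SE 0.23, adjusted p = 3.46e-05) followed.

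Cholesterol synthesis had 12 of 23 genes higher and 1 lower (median 0.69). The lower one, Ebp, lost its call without WT distal 1, WT distal 2 or WT proximal 1. Hmgcs1, at the start of the pathway, was at 1068, 1101 and 1085 against 2337, 2112 and 2897 (log2 fold change 1.16, SE 0.19, adjusted p = 0.000739), and Sqle, the squalene epoxidase, at 384, 299.7 and 417 against 1162, 863 and 1525 (log2 fold change 1.66, SE 0.27, adjusted p = 0.000599). Neither gene overlapped between segments.

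**Figure D4:**
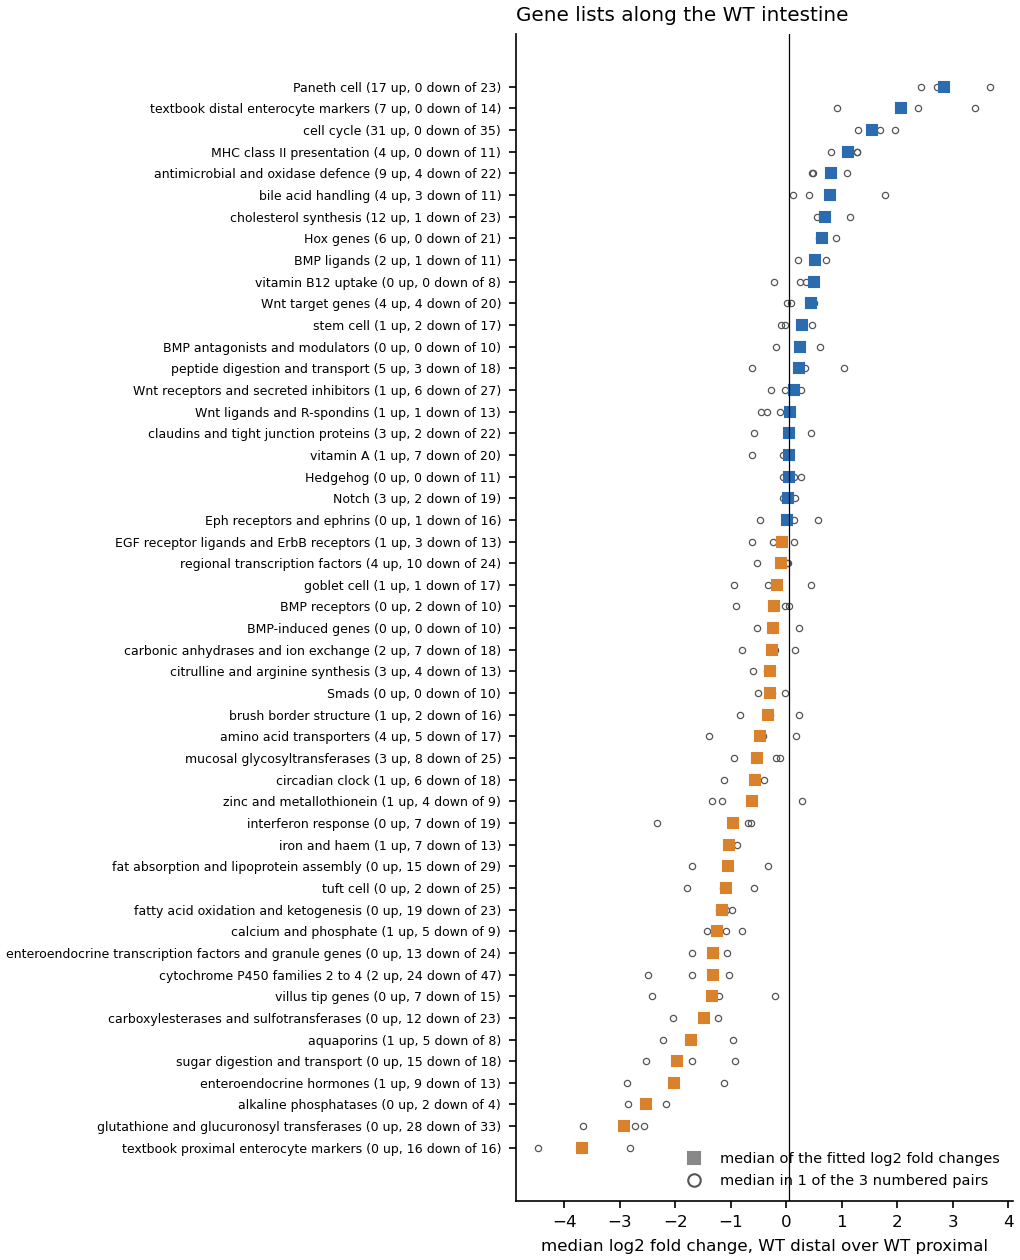
Median log2 fold change of WT distal over WT proximal libraries for the 50 gene lists (squares), with the median in each of the 3 numbered pairs (open circles) and, as a vertical line, the median of all genes, 0.04. Labels give how many members were higher (up) and lower (down) in distal libraries of those measured, from -3.68 for textbook proximal markers to 2.83 for Paneth cells.

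Paneth cell transcripts rose in the distal libraries. Of 23 genes 17 were higher and 0 lower, with a median log2 fold change of 2.83. Defa22, an alpha-defensin, was at 4.21, 46.0 and 60.2 scaled reads in proximal and 1523, 11390.2 and 9202 in distal libraries (log2 fold change 7.67, SE 0.91, adjusted p = 4.97e-05), and Defa21 at 8.42, 60.6 and 38.7 against 1623, 12354 and 9198 (log2 fold change 7.57, SE 0.76, adjusted p = 1.21e-05). WT distal 1 held several times less of both than the other distal libraries, and still more than any proximal library.

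Lysozyme (Lyz1) was at 895, 2031 and 3352 against 3301, 25219 and 19558 (log2 fold change 2.69, adjusted p = 0.0119), with WT distal 1 inside the proximal range, and its call ended without WT distal 2 or WT proximal 1 (adjusted p of up to 0.0685). Lyz1 was named after its values were seen. The summed Paneth list stood at 3793, 7334 and 12360.5 in proximal and 15186, 101524 and 89872 in distal libraries. The count of higher genes was 11 without WT distal 2 and 10 without WT proximal 1, and 1 was lower without WT distal 1 or WT distal 2 or with the block. Alpha-defensin genes are near-identical copies, so single members are uncertain.

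Antimicrobial and oxidase defence genes moved both ways, 9 of 22 higher and 4 lower. This list shares Itln1 and Ang4 with the Paneth cell list. Nos2, the inducible nitric oxide synthase, was at 18.9, 29.2 and 17.2 scaled reads in proximal and 2129.7, 2624 and 2462 in distal libraries (log2 fold change 6.68, SE 0.61, adjusted p = 4.61e-06). Duox2, a peroxide-producing oxidase, was at 62.1, 20.2 and 20.4 against 3127, 1258 and 2500.4 (log2 fold change 6.07, SE 0.50, adjusted p = 1.66e-06). Saa1, serum amyloid A, was at 1.05, 0 and 0 against 751, 826 and 752 (log2 fold change 8.35, SE 0.86, adjusted p = 1.43e-05).

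Proximal libraries held little of these 3 genes, at most 62.1 scaled reads. Reg3g, a lectin active against Gram-positive bacteria, was at 1578, 1613 and 1657 against 40136, 28588 and 29473 (log2 fold change 4.32, SE 0.41, adjusted p = 6.49e-06). The 4 genes were each higher in every distal library than in any proximal one. Reg1, Reg4 (log2 fold change -3.41, SE 0.49, adjusted p = 0.000276) and the cytokine gene Il18 (log2 fold change -2.42, SE 0.26, adjusted p = 2.65e-05) were lower, as was Ido1 (adjusted p = 0.0211), which was lost without WT distal 2, WT distal 3 or WT proximal 1.

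Enteroendocrine hormones of the proximal gut fell, and 9 of 13 hormone genes were lower with 1 higher (2 without WT distal 1 or with the block). Cck, cholecystokinin, was at 4142, 2354 and 1787 scaled reads in proximal and 71.8, 78.1 and 69.6 in distal libraries (log2 fold change -5.11, SE 0.29, adjusted p = 1.09e-07). Gip, the glucose-dependent insulinotropic peptide, was at 4677, 3555 and 2879 against 331, 285 and 422 (log2 fold change -3.40, SE 0.35, adjusted p = 1.51e-05). Ghrl, ghrelin, was at 574, 333 and 384 against 21.9, 33.9 and 40.1 (log2 fold change -3.66, SE 0.27, adjusted p = 5.76e-07).

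None of these overlapped between segments. Secretin (Sct, log2 fold change -1.50, SE 0.28, adjusted p = 0.00181), somatostatin (Sst, log2 fold change -2.80, SE 0.30, adjusted p = 2.34e-05), Tph1, which makes serotonin (log2 fold change -2.91, SE 0.36, adjusted p = 6.46e-05), and Cartpt (log2 fold change -3.57, SE 0.47, adjusted p = 0.000133) fell too. Iapp and Ucn3 were also called lower from a low level, calls that ended without WT distal 2 and, for Ucn3, also without WT proximal 2. Neurotensin (Nts), a hormone of the ileum, was at 239.9, 88.7 and 109.6 against 1149, 826 and 1099 (log2 fold change 2.91, SE 0.31, adjusted p = 2.13e-05).

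The hormones of the L cell did not pass: Gcg, the precursor of GLP-1, was at 85.2, 84.2 and 52.7 against 64.5, 101 and 90.7 (adjusted p = 0.619) and Pyy, peptide YY, at 275, 241 and 185 against 211, 213 and 382 (adjusted p = 0.806). Tac1 missed the threshold (log2 fold change 0.96, SE 0.34, adjusted p = 0.052) and passed it with the pair as a block (adjusted p = 0.0203). Factors and granule genes of enteroendocrine cells were lower for 13 of 24, with 0 higher. They included chromogranin B (Chgb, log2 fold change -2.41, SE 0.33, adjusted p = 0.000177), the lineage factor Neurod1 (log2 fold change -1.96, SE 0.39, adjusted p = 0.00256) and the irritant channel Trpa1, at 114, 117 and 116 against 1.22, 3.08 and 1.05 (log2 fold change -4.95, SE 0.45, adjusted p = 4.2e-06).

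Goblet cell genes had 1 of 17 higher and 1 lower, with Gfi1 the lower one (log2 fold change -1.28, SE 0.30, adjusted p = 0.00734; the call ended with pan-epithelial scaling) and 5 lower without WT distal 3. The higher one, Spink4, kept its call only without WT distal 1 among the 6 libraries left out. The goblet genes Clca1 (43073, 25352 and 24589 against 11551, 10754 and 23977 scaled reads, adjusted p = 0.0594) and Zg16 (95855, 52575 and 47294 against 22333, 26607 and 36858, adjusted p = 0.056) missed the threshold. Tuft cell genes had 2 of 25 lower and 0 higher. The goblet and tuft counts stand beside 24.1% of all genes called in either direction. The median of the tuft list was -0.59, -1.14 and -1.79 in the pairs numbered 1, 2 and 3, and with the pair as a block 12 genes were lower and 1 higher. The count of lower tuft genes was 14 without WT distal 1, 0 without WT distal 2, WT distal 3 or WT proximal 1, and 1 without WT proximal 3, and 1 was higher without WT distal 2.

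Trpm5, the taste channel of tuft cells, was at 2509, 977 and 1103 in proximal and 1219, 248 and 256 in distal libraries, with an adjusted p of 0.0509 without and 0.00298 with the block. Libraries numbered 1 had the most Trpm5 in both segments.

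Cell cycle genes were higher in the distal libraries for 31 of 35, with 0 lower and a median log2 fold change of 1.55. Mki67, a marker of cycling cells named after its values were seen, was at 203, 233 and 323 scaled reads in proximal and 918, 1277 and 1068 in distal libraries (log2 fold change 2.11, SE 0.30, adjusted p = 0.000252). Top2a, the topoisomerase of dividing cells, was at 226, 265 and 325 against 1022, 1353 and 1156 (log2 fold change 2.11, SE 0.26, adjusted p = 8.07e-05). Ccnd1, cyclin D1, was at 32.6, 88.7 and 107 against 432, 463 and 397 (log2 fold change 2.62, SE 0.35, adjusted p = 0.00014). Distal and proximal libraries did not overlap for these genes.

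Germinal centre B cells also divide, and their markers rose in the same libraries: 8 of 10 were higher, with summed levels of 1157 to 1951 in proximal and 3089.7 to 4703 in distal libraries. Their part in the cell cycle result was not tested. Among stem cell genes 1 of 17 was higher and 2 were lower, beside 24.1% of all genes called in either direction. Rnf43, a Wnt receptor antagonist of stem cells, was at 979.8, 1219 and 1389.6 against 180.2, 219.9 and 346 (log2 fold change -2.30, SE 0.26, adjusted p = 2.95e-05), while Sox9 was called lower and Aqp4 higher (adjusted p = 0.0466 and 0.0179). The calls of Sox9 and Aqp4 ended without WT distal 2, the first also without WT distal 3, WT proximal 1 or WT proximal 3 and the second also without WT proximal 2.

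BMP signalling is the pathway the study addresses. Of 11 ligand genes 2 were higher and 1 lower in the distal libraries, beside 24.1% of all genes called in either direction. Bmp2, a ligand made by differentiated epithelium, was at 401, 313 and 353 scaled reads in proximal and 482, 415 and 661 in distal libraries (log2 fold change 0.52, adjusted p = 0.0796). Bmp3 was at 14.7, 61.7 and 90.3 against 136, 148 and 269 (log2 fold change 1.94, SE 0.56, adjusted p = 0.021), and its call ended without WT distal 3 or WT proximal 1 (adjusted p of up to 0.0842). Bmp6 was at 1.05, 6.73 and 0 against 9.74, 15.4 and 14.8 (log2 fold change 1.98, SE 0.51, adjusted p = 0.0128), and its call ended without WT proximal 3 (adjusted p = 0.058). Distal libraries lay above all proximal ones for Bmp3 and Bmp6. Bmp8a was called lower (log2 fold change -1.25, SE 0.43, adjusted p = 0.0462), which was lost without WT distal 1, WT distal 2, WT proximal 1 or WT proximal 3 (adjusted p of up to 0.197). Bmp4, mostly a ligand of the mesenchyme, was at 5.26, 5.61 and 2.15 against 13.4, 16.4 and 8.43 (adjusted p = 0.115).

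Receptors had 2 of 10 lower and 0 higher, beside 24.1% of all genes called in either direction. Bmpr1a was at 1028, 771 and 1018 against 437, 526 and 630.4 (log2 fold change -0.82, SE 0.19, adjusted p = 0.00717), each distal library lying below each proximal one. Acvr2a also passed (log2 fold change -0.82, SE 0.22, adjusted p = 0.0152), which was lost without WT distal 1 or WT proximal 1. The type II receptor Bmpr2 was at 448, 267 and 303 against 280.1, 279.5 and 299 (adjusted p = 0.5).

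Of 10 antagonists and modulators 0 passed. At an unadjusted p under 0.05 the list held 2 genes, and edgeR called 0 and DESeq2 0 of them. Without WT distal 1 or WT distal 3, or with the block, 1 was higher. Grem1, the antagonist made by muscle and stroma around the crypts, was at 2.10, 3.37 and 2.15 against 6.09, 15.4 and 7.38 scaled reads (adjusted p = 0.0564 without and 0.0393 with the block).

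Among BMP-induced genes 0 of 10 passed, with 2 at an unadjusted p under 0.05, 1 called lower by edgeR and 1 called lower by DESeq2. Id1 was at 1568, 1582 and 1407 scaled reads in proximal and 970.5, 1114 and 1649 in distal libraries (log2 fold change -0.32, SE 0.22), and Id3 at 1676, 1564 and 1261 against 1204, 1397 and 1424 (log2 fold change -0.15, SE 0.17). Segments overlapped for both. Id2, Smad6 and Smad7 had log2 fold changes of -0.74, -0.56 and -0.54 (adjusted p = 0.0906, 0.377 and 0.0764). Of 10 Smad pathway genes 0 passed, with 2 at an unadjusted p under 0.05, 2 called lower by edgeR and 2 called lower by DESeq2. Without WT distal 3 or WT proximal 2, 1 Smad gene and 1 induced gene were lower, and without WT proximal 2, 1 induced gene was higher.

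Wnt genes differed at selected members. Of 20 targets 4 were higher and 4 lower. Sp5, a transcription factor induced by Wnt, was at 1007, 1035 and 1023 scaled reads in proximal and 77.9, 116 and 112 in distal libraries (log2 fold change -3.32, SE 0.27, adjusted p = 1.64e-06), and Notum, a secreted Wnt inhibitor, at 35.8, 14.6 and 6.45 against 0, 1.03 and 2.11 (log2 fold change -2.53, SE 0.56, adjusted p = 0.00522). Tcf7 (log2 fold change 1.61, SE 0.38, adjusted p = 0.00779) and Lef1 (log2 fold change 2.40, SE 0.60, adjusted p = 0.0103) rose, and both are also expressed by lymphocytes, whose markers differed in these libraries as described below. Their part in these 2 results was not tested.

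Receptors and secreted inhibitors had 6 of 27 lower and 1 higher, a share near the 24.1% of all genes called in either direction. The lower ones included Fzd4 (log2 fold change -2.004, SE 0.40, adjusted p = 0.00255) and Porcn, the acyltransferase of Wnt ligands (log2 fold change -2.30, SE 0.48, adjusted p = 0.00345). The higher one, Fzd9, lost its call without WT distal 2, WT distal 3, WT proximal 2 or WT proximal 3 (adjusted p of up to 0.176). Of 13 Wnt and R-spondin genes only Wnt9b (log2 fold change -2.85, SE 0.42, adjusted p = 0.000334) fell and only Wnt10a was called higher (adjusted p = 0.0314). The call of Wnt10a ended without WT distal 2, WT proximal 1 or WT proximal 2. The calls of this list stand beside 24.1% of all genes called in either direction.

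In the EGF family, the ligand Areg was at 1027, 436 and 448 against 60.9, 48.3 and 82.2 (log2 fold change -3.19, SE 0.35, adjusted p = 2.82e-05) and Btc at 196, 94.3 and 80.6 against 24.4, 24.7 and 19.0 (log2 fold change -2.24, SE 0.39, adjusted p = 0.00109), whereas Ereg was at 54.7, 25.8 and 18.3 against 90.1, 134 and 228 (log2 fold change 2.16, SE 0.38, adjusted p = 0.00112). Each of these ligands was without overlap between segments. Notch genes had 3 of 19 higher and 2 lower, a share near the 24.1% of all genes called in either direction. Heyl was at 81.0, 147 and 191 against 8.52, 16.4 and 12.6 (log2 fold change -3.23, SE 0.46, adjusted p = 0.000257) and the ligand Dll1 was lower (log2 fold change -1.49, SE 0.31, adjusted p = 0.00347). Hedgehog genes had 0 of 11 past the threshold and 1 at an unadjusted p under 0.05. In this list 1 was called higher by edgeR, 1 by DESeq2 and 1 without WT proximal 1.

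Villus tip genes, which the series' question on villus length makes of interest, had 7 of 15 lower and 0 higher in the distal libraries (1 higher without WT proximal 1 or with the block). Ada, the adenosine deaminase of the upper villus, was at 83154, 41186 and 37972 scaled reads in proximal and 4839, 3207 and 6347 in distal libraries (log2 fold change -3.45, SE 0.71, adjusted p = 0.00311). Enpp3, a brush border ectonucleotidase, was at 22857, 6915 and 8583 against 571, 389 and 874 (log2 fold change -4.25, SE 0.91, adjusted p = 0.00425). Slc28a1, a nucleoside carrier, was at 2897, 1533 and 1637 against 82.8, 55.5 and 221 (log2 fold change -4.24, SE 0.42, adjusted p = 1.13e-05).

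WT proximal 1 was the highest library for all 3. Klf4 was at 6089, 3929 and 4138 against 3793, 4091 and 4012 and did not pass (adjusted p = 0.547). Brush border structure genes had 2 of 16 lower and 1 higher, beside 24.1% of all genes called in either direction. The lower count was 4 without WT distal 3 and 1 without any single one of the other 5 libraries.

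Remaining lists showed mixed or library-dependent differences. Tight junction genes had 3 of 22 higher and 2 lower, a share near the 24.1% of all genes called in either direction. The pore-forming claudin Cldn2 rose (log2 fold change 2.27, SE 0.29, adjusted p = 0.000111) and Cldn15 fell (log2 fold change -1.49, SE 0.35, adjusted p = 0.00761). Glycosyltransferases had 8 of 25 lower (5 without WT distal 2 or WT proximal 1) and 3 higher, with Fut4 lower (log2 fold change -2.07, SE 0.25, adjusted p = 6.48e-05) and St6gal1 higher (log2 fold change 2.40, SE 0.29, adjusted p = 6.31e-05). Citrulline and arginine synthesis had 4 of 13 lower, such as Arg2 (log2 fold change -3.003, SE 0.40, adjusted p = 0.000149) and Cps1 (log2 fold change -1.30, SE 0.28, adjusted p = 0.0043), and 3 higher. The higher count was 0 without WT distal 2 or WT proximal 1 and 1 without WT distal 3, WT proximal 2 or with pan-epithelial scaling.

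Interferon-induced genes had 7 of 19 lower and 0 higher. Isg15, for example, was at 983, 2524 and 363 against 275, 177 and 191 (adjusted p = 0.013), with WT proximal 2 far above the others, and its call ended without WT distal 2 or WT proximal 2. The count of lower genes was 1 without WT proximal 2 or WT distal 2, 3 without WT distal 3, 4 without WT distal 1 or WT proximal 1 or with pan-epithelial scaling, 11 without WT proximal 3 and 11 with the block. Clock genes had 6 of 18 lower and 1 higher, with Hlf (log2 fold change -3.35, SE 0.53, adjusted p = 0.00052) and Per1 (log2 fold change -1.02, SE 0.25, adjusted p = 0.00863) among the lower. The lower count was 2 without WT distal 1, WT distal 2 or WT proximal 3, and 10 with the block. The higher count was 0 without any of those 3 libraries, 2 without WT distal 3 and 2 with the block. The times of tissue collection are not given in the labels.

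Markers of immune cells divided sharply between the segments. B cell genes were higher in the distal libraries for 20 of 20, with a median log2 fold change of 3.33. Cd79a, a subunit of the B cell receptor, was at 128, 99.9 and 748 scaled reads in proximal and 1441, 4242 and 2975 in distal libraries (log2 fold change 3.61, SE 0.63, adjusted p = 0.00112). Gcsam, a signalling adaptor of germinal centre B cells, was at 49.5, 19.1 and 69.9 against 309, 354 and 256 (log2 fold change 2.84, SE 0.49, adjusted p = 0.000916). Ighg2b, an immunoglobulin heavy chain constant region, was at 52.6, 391.7 and 79.5 against 6791, 11029.5 and 6789 (log2 fold change 6.05, SE 0.58, adjusted p = 7.02e-06).

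No proximal library reached a distal one for these genes. Plasma cell genes had 6 of 13 higher and 0 lower, and 3 of 10 genes of Peyer's patch stroma were higher (1 without WT distal 2, 5 without WT distal 3 or with the block). Summed B cell markers were 2795, 2607 and 8031 in proximal and 16439.8, 46467 and 29147 in distal libraries (exact permutation p = 0.1, the smallest possible). The labels do not state whether Peyer's patches were removed from the tissue.

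MHC class II genes, which B cells and enterocytes of the ileum both express, were higher for 4 of 11, and for 10 with the pair as a block. Cd74, the invariant chain, was at 6709, 14103 and 14740.0 against 17246, 33983 and 28165 without overlap (adjusted p = 0.346 without and 0.00252 with the block). The part of B cells in this list was not tested.

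T cell and intraepithelial lymphocyte genes went the other way, with 13 of 20 lower, 0 higher and a median of -2.51. Cd8a was at 1236, 3085 and 2662 scaled reads in proximal and 114, 337 and 218 in distal libraries (log2 fold change -3.40, SE 0.41, adjusted p = 6.37e-05), and the granzyme gene Gzma at 5790.2, 16009 and 13416 against 548, 1109 and 844 (log2 fold change -3.74, SE 0.45, adjusted p = 6.04e-05). WT proximal 1 held less of both than the other proximal libraries, and still more than any distal one. Summed over the list, levels were 16847 to 44119.5 in proximal and 2563 to 5524 in distal libraries.

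Among the other marker lists, myeloid genes had 0 of 21 past the threshold (2 at an unadjusted p under 0.05, 0 by edgeR and 0 by DESeq2). Without WT distal 1, 2 myeloid genes were lower, without WT distal 3, 2 were higher, and without WT proximal 1, 1 was lower. With the mitochondrial share as covariate 5 were lower. Smooth muscle genes had 4 of 12 higher (7 with the block), and fibroblast genes 1 of 15 lower, beside 24.1% of all genes called in either direction. With the block 3 fibroblast genes were higher and 1 lower, and 1 was higher without WT distal 3 or WT proximal 1. Summed fibroblast markers were 27225, 13555 and 7777 in proximal and 26523, 18524 and 5162 in distal libraries, lowest in those numbered 3.

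Stomach and Brunner gland genes had 5 of 8 lower (3 without WT distal 1, WT distal 2, WT proximal 2 or WT proximal 3). Tff2, a trefoil peptide of stomach and Brunner's glands, was at 2.10, 141 and 188 scaled reads in proximal libraries and at 0 reads in the distal ones, at least 33.5-fold lower against the floor. Pancreatic acinar genes had 1 of 13 lower, Cela1 (log2 fold change -1.79, SE 0.39, adjusted p = 0.00434), with summed levels of 932, 1718 and 1124 in proximal and 177, 1821 and 343 in distal libraries. WT distal 2 stood at the proximal level, and without it 12 of the 13 were lower. With the block 5 were lower. Of 6 colon markers 3 were lower and 1 higher in the distal libraries, and these counts were the same in every alternative. The lower ones were Aqp8, Slc26a3 and Cyp2c55 (log2 fold changes -3.80, -1.35 and -1.51). Of 13 endothelial markers 1 was lower (0 without WT distal 2 or WT proximal 1) and 0 higher (1 without WT distal 1, WT proximal 1 or WT proximal 3, or with the block). Enteric neuron and glia markers had 1 of 9 higher (2 without WT distal 3) and 1 lower, and mast cell and eosinophil markers 1 of 8 higher and 0 lower. Adipose (6 genes), erythrocyte (5) and mitochondrially encoded genes (11) had 0 called, 0 at an unadjusted p under 0.05 and 0 by edgeR or DESeq2. Of 14 stress and handling genes 2 were lower, and 1 without WT distal 1, WT distal 2, WT distal 3 or WT proximal 1. The counts of these marker lists stand beside 24.1% of all genes called in either direction.

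**Figure D5:**
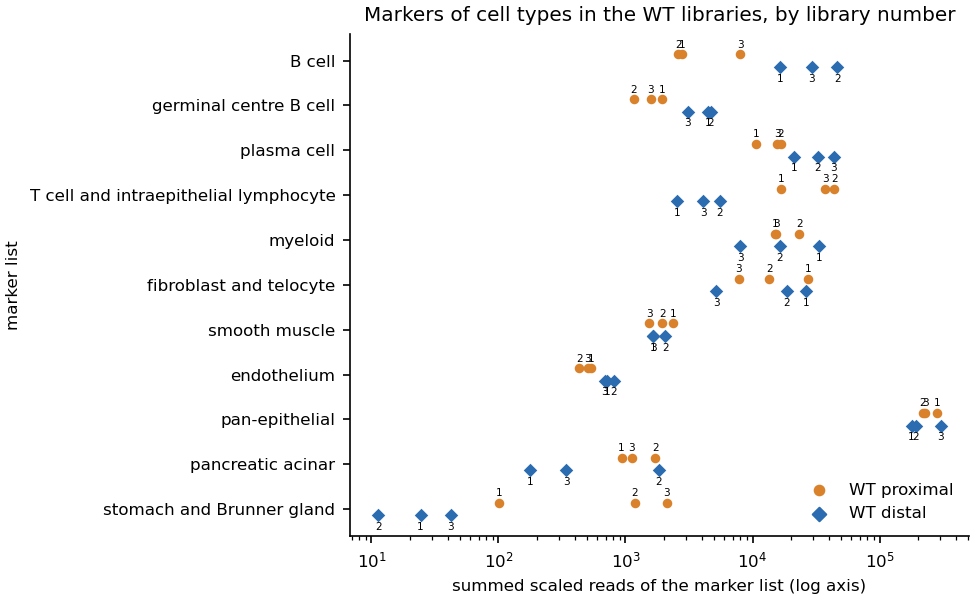
Summed scaled reads (log axis) of 11 marker lists in each WT library, with orange circles for proximal and blue diamonds for distal libraries and the library number beside each point. B cell, germinal centre B cell and plasma cell markers lie higher in all distal libraries and T cell markers lower, while pan-epithelial, myeloid and fibroblast markers overlap.

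Of 17125 pairs of adjacent tested genes on a chromosome 1206 (7.04%) both passed. This is a share of pairs and is not comparable with the 24.1% of single genes called. Of the 1206 pairs 845 (70.1%) changed in the same direction, where single called genes were 2037 higher and 2100 lower. The shares expected for unrelated neighbours were not computed. Runs of at least 5 neighbours with the same direction numbered 21, 12 higher and 9 lower in distal libraries. The longest was the alpha-defensin cluster of 12 genes on chromosome 8 from 21162277 to 21618972 (median log2 fold change 4.16). Among the lower runs were 7 Cyp2c genes on chromosome 19 from 39007019 to 39741054 (median -3.20), 7 genes around Nat8 on chromosome 6 from 85808024 to 85930284 (median -2.16), 6 Gstm genes on chromosome 3 from 107926334 to 108044894 (median -4.37) and 6 genes of the Adh cluster on chromosome 3 from 138217760 to 138455499 (median -3.52). A run on chromosome 6 from 70698449 to 70740554 held 9 genes of the immunoglobulin kappa locus. Most of the higher runs held immunoglobulin genes, of this locus or of the heavy chain locus on chromosome 12. B cell markers were higher in the same libraries, and their part in these runs was not tested. Most of these clusters hold close copies of a gene, and the part of reads shared between copies was not tested. The strand used in counting is not given in the sources used here, so overlapping and antisense genes are uncertain too.

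Promoter letters were counted in the 300 bases around the start (250 before and 50 after) of the 12782 tested genes that had a RefSeq sequence. The HNF4 motif was found in 78 of them (0.61%), in 21 of 1054 genes that were at least 2-fold lower in distal libraries (1.99%) and in 5 of 986 that were at least 2-fold higher (0.507%). The 21 include Alpi, Trpv6, Treh, Cyp3a11, Cyp2c65, Cyp2c67, Cyp2c68, Sult1b1 and B3gnt3, and several are copies of each other. Matches were thus counted for few promoters in any group. The GATA motif was found in 8.92% of all promoters, 12.6% of the lower and 9.63% of the higher ones. The CDX motif was found in 8.71%, 10.6% and 10.3%. An FXR motif, the inverted repeat of AGGTCA spaced by 1 base with up to 1 base changed, was found in 0.0704% of all promoters and in 1 of the 986 higher genes. These shares are descriptions without a test.

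The WT axis was set against the axis of the cKO mice to see where it differs. In the cKO libraries 1806 of 17175 genes (10.5%) passed between distal and proximal. The difference of the segment effects itself passed for 99 genes (0.576%), 69 of them with a larger distal minus proximal value in WT and 30 with a smaller one, and 2265 genes had an unadjusted p under 0.05. With the pair as a block 460 genes (2.68%) passed. That block also paired the cKO libraries by number, and whether same-numbered cKO libraries resemble each other was not examined. Without single WT libraries the count lay between 7 (without WT distal 2) and 266 (without WT distal 3), with 24 without WT proximal 1, 32 without WT proximal 2 and 192 without WT proximal 3.

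Pyy was at 275, 241 and 185 scaled reads in WT proximal and 211, 213 and 382 in WT distal libraries, and at 1.01, 1.06 and 5.59 in cKO proximal and 73.1, 59.7 and 88.3 in cKO distal libraries. Its segment difference was 0.16 in WT and 4.18 in cKO on the log2 scale (difference -4.02, SE 0.53, adjusted p = 0.0117). Cck fell in both, with log2 fold changes of -5.11 in WT and -3.06 in cKO (difference -2.05, adjusted p = 0.0423). Ferroportin (Slc40a1) had a log2 fold change of -4.41 in WT and -7.16 in cKO (adjusted p of the difference 0.0117). The cKO axis was thus larger for Pyy and Slc40a1 and smaller for Cck.

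The difference also passed for single genes of the detoxification lists, 0 of 47 in cytochrome P450 families, 3 of 33 glutathione and glucuronosyl transferases and 2 of 23 carboxylesterases and sulfotransferases. Ces2b had log2 fold changes of -4.91 in WT and -1.43 in cKO (adjusted p of the difference 0.0203) and the nucleoside carrier gene Slc28a1 of -4.24 and -0.47 (adjusted p of the difference 0.0184). Of the 10 germinal centre genes 5 differed. Their summed levels averaged 1563 and 4090 in WT proximal and distal libraries, and 1018 and 811 in cKO proximal and distal ones. Gcsam had log2 fold changes of 2.84 in WT and -1.76 in cKO (difference 4.60, adjusted p = 0.015), being at 12.1, 13.8 and 18.6 in cKO proximal and 6.36, 0.83 and 3.19 in cKO distal libraries. Slc10a2, Fabp6, Gata4, Pdx1, Hoxb9 and Osr2 did not pass this test, and among them Osr2 had the lowest adjusted p (4.64 in WT and 7.31 in cKO, adjusted p = 0.0649).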

How the data were processed

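The table holds 12 RNA libraries, 3 for each segment and genotype. Per the submitters' processing notes, the authors used STAR with the mm10 genome and DESeq2 1.28.1. The STAR version, read counter and strand setting are not given in the sources used here. The deposited signal values are reads plus 1 divided by a size factor of the library. All values of the 6 WT libraries were whole multiples of such a step (100% within 0.001 of a step), so whole reads were recovered for the alternative count tests. The log2 fold changes, the Wald score and the p-values that the authors deposited belong to a contrast of their own and were not used here. There were 0 columns of values without a sample.
The main comparison was limma 3.58.1 with a mean-variance trend (R 4.3.3) on log2(deposited value + 1), over all 12 libraries with 4 group means and Benjamini-Hochberg adjustment over all 17175 genes. Fold changes are on that scale, which understates the change of low genes. A filter of at least 1 in 3 libraries removed 0 genes. Alternatives were edgeR 4.0.16 (quasi-likelihood) and DESeq2 1.42.0 on recovered reads, TMM and pan-epithelial scaling, pseudocounts of 0 and 5, a filter of 10 in 3 libraries, the mitochondrial share as a covariate, the 6 WT libraries alone, a replicate block and leaving out each WT library. The procedure was tested on simulated data with known changes.
The labels number the WT libraries 1 to 3 in both segments. Deviations from the group means correlated at 0.36, 0.30 and 0.32 for libraries with the same number over 10415 genes, and each library correlated best with its own number. The numbers were therefore taken as pairs in the replicate block and in values given by pair. The main comparison did not use the pairing, so its counts and p-values are unpaired. It called 4137 genes, against 4935 with the block.
Genes, lists and members were chosen with earlier results of these data known. Named were the 12 largest increases and decreases without overlap and the largest differences from the cKO axis. Both were taken among genes whose log2 CPM averaged 2 or more over the WT libraries, without predicted genes and immunoglobulin variable segments. From each list up to 6 members with the smallest p were taken, passing members first. Passing members of the rarer direction and every measured member of some lists were added. Lct, Sis, Slc5a1, Mttp, Lyz1, Mki67 and Enpep were added after their values were seen, as were the examples without a call. Coordinates are from GENCODE M21 (17168 of 17175 gene IDs matched) and promoters from RefSeq on GRCm38.p6. Python 3.11.15 with pandas 2.3.3 was used for tables. Some genes and 1 motif are not reported here. Intervals and floors cover counting error only.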

Additional observations from a re-analysis of the deposited data

Results flagged for a closer look

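The difference of the segment effects between WT and cKO mice passed a test of its own (limma interaction term, adjusted p under 0.05) for 99 genes, and 30 named genes among them follow with the log2 segment difference of WT minus that of cKO. Positive values were found for lymphocyte genes: Blk 3.998, Ighm 3.30, Mybl1 3.37, Mef2b 4.64, S1pr2 2.30, Gcsam 4.60, Ighg2b 6.27, Ighg3 4.25, Mzb1 3.13 and Vpreb3 4.47. Summed B cell markers averaged 4478 and 30684.5 scaled reads in WT proximal and distal libraries, and 1029 and 853 in cKO proximal and distal ones. The labels do not state whether Peyer's patches were removed. The part of B cell content in these gene differences was not tested. The iron exporter gene Slc40a1 (2.76) and the amino acid carrier gene Slc6a14 (3.81) were also positive. Negative values were found for the hormone genes Cck (-2.05), Sct (-1.97), Pyy (-4.02) and Cartpt (-3.56). They were also found for genes of detoxification and fatty acid metabolism: Gstm6 -2.19, Gstm1 -2.41, Ces1f -2.09, Ces2b -3.47, Aadac -2.52, Pdk4 -2.05, Acaa1b -2.07 and Acox2 -2.94. The remaining negative values were those of Aldh1a1 (-1.81), Abcc3 (-2.23), Aqp3 (-2.37), Slc28a1 (-3.76), the growth factor gene Areg (-2.50) and the pepsinogen gene Pgc (-2.81).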

How the results depend on the processing

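The count of genes that passed between WT distal and WT proximal libraries stayed within 1.5 times 4137 in 18 of 19 alternatives, including 4935 with the replicate block and 2849 with pan-epithelial scaling. The 19 include a fit without the filter, which equals the main fit because the filter removed 0 genes. They also include the 2786 main calls of at least 2-fold, a subset of the 4137 and not another fit. Leaving out single libraries gave 2741 (without WT distal 2) to 3924. No named gene reversed: of 292 called, 238 kept the call when each WT library was left out in turn, 235 kept it in every alternative, and 1 (Mtf1) lost it with the block, which gave a call to 35 others. Many named genes were chosen for large changes or small p in these same data, so their stability was partly built in and does not speak for other genes. The count of genes whose segment difference differed between WT and cKO moved more. Against 99 it was 594 with DESeq2, 59 with edgeR, 44 with pan-epithelial scaling, 58 with a pseudocount of 0, 168 with a pseudocount of 5 and 460 with the replicate block, and without single WT libraries it lay between 7 and 266. The cause was not tested. With 3 libraries a group, an exact permutation test of a single value cannot go below 0.1. Genes with few reads had fold changes that depend on the pseudocount.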
